A study of Homo sapiens with 8 samples.

Results

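The baseline transcriptome described here is that of HCT116 cells that carried CRISPR interference (CRISPRi) and a control guide, labelled Parental CRISPRi with sgControl. Its members are the 2 libraries with that guide, replicates 1 and 2, chosen by their titles and guide labels out of 8 in the series. The other 6 libraries received a guide against the noncoding RNA NORAD and are not used below. HCT116 is an established colorectal carcinoma line of epithelial origin, known for stabilised beta-catenin and mismatch repair deficiency. CRISPRi silences genes without cutting DNA: a guide RNA brings an inactive Cas9, fused to a repressor, to the promoter of choice. A control guide keeps that machinery in the cell without directing it to the gene under study. The labels give neither the control guide's sequence nor whether the line is a clone, and do not say that the replicates were separate cultures.

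Polyadenylated RNA was selected with oligo-dT beads, so that the values are levels of mature messenger RNA. The deposited unit is RPKM, reads per kilobase of gene and per megaread (M) of the library, which allows levels of genes of different length to be compared within a library. A pair of values below gives replicate 1 and then replicate 2, and a value with ± is their mean and standard deviation (SD). The scaling sizes of the libraries were 42.57 and 44.87 M, and 0.0705 and 0.0669 RPKM stood for 3 reads on a gene of 1 kb, the most that a count of 0 allows there. These limits cover counting error only, since copies made by amplification are not independent molecules. There was 1 group, so no difference between conditions was tested, and genes are said to differ in level where the values of both libraries do not overlap.

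Of 19411 genes, 15565 and 15544 were above 0 in the 2 libraries. In both libraries, 10372 genes (53.4%) reached 1 RPKM, 4333 reached 10 RPKM, 292 reached 100 RPKM and 13 reached 1000 RPKM. At the other end, 3292 genes (17%) were listed at 0 in both, and a further 1129 were above 0 in 1 library, none of them above 0.283 RPKM. The messenger pool was spread over few genes: 593 and 581 genes held 50% of the summed RPKM. The 100 highest genes held 27.7% and 27.6%, and the genes at 1 RPKM or more held 99.5% and 99.5%.

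**Figure D1:**
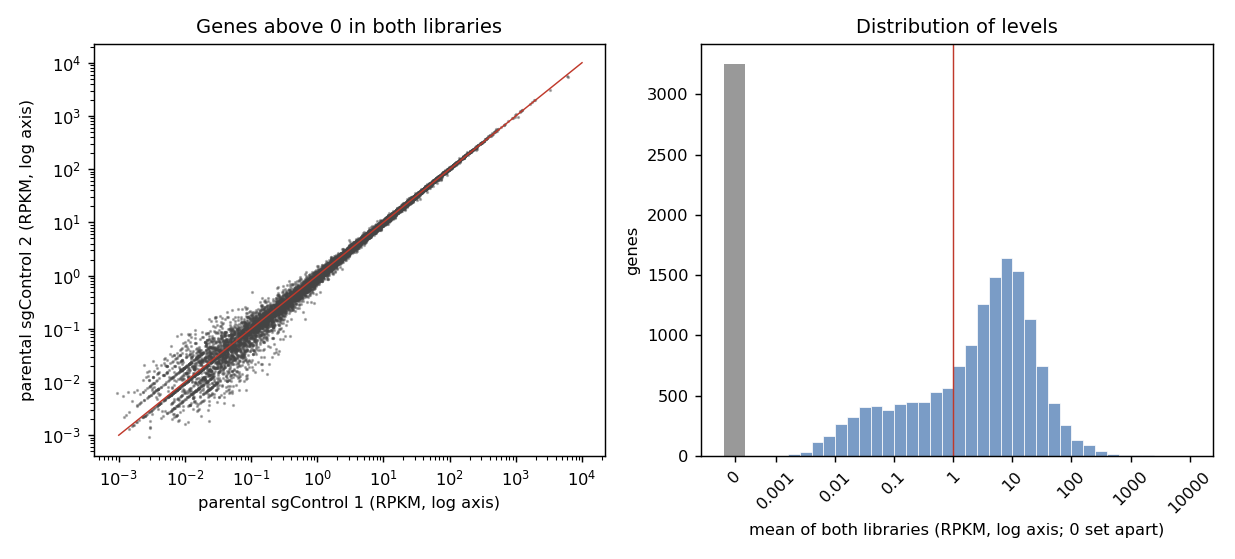
Left, the level of each gene above 0 in both control-guide libraries, in RPKM on log axes, with the line of equal values. Right, the number of genes by mean level, with genes at 0 set apart in grey and 1 RPKM marked by the red line; Y-linked genes are not drawn. Genes at 1 RPKM or more lie close to the line, and the scatter widens below 0.1 RPKM.

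The 2 libraries differed by a root mean square of 0.0965 on the log2(RPKM + 0.1) scale over the genes at 1 RPKM or more. Across these genes, which are not independent replicates, Pearson's r was 0.998. A difference over 1.5-fold was seen in 8 genes and one over 2-fold in 0. The chi-square of recovered reads was 3.85 per degree of freedom over 7518 genes, which is above counting noise, so they do not look like 1 library deposited 2 times; the labels do not say whether they came from separate cultures. Among the 4410 genes with a mean of 10 RPKM or more, those most in excess in replicate 2 were TIMM10 (22.4 and 27.4 RPKM), RAB25 (12.2 and 14.8), NDUFS4 (29.5 and 35), TIMM8B (24.1 and 28.5) and CKS2 (137 and 161). TIMM10 and TIMM8B are small chaperones of the mitochondrial intermembrane space, and CKS2 is a small partner of cyclin-dependent kinases. Those most in excess in replicate 1 were LENG8 (35.9 and 27.7), the RNA helicase DDX39B (11.9 and 9.21, with 85.8% of its coding bases in exons of another gene), the giant scaffold AHNAK (45.5 and 37.4), the kinesin KIFC2 (20.8 and 17.2) and the splicing-associated SRRM2 (65.3 and 53.9). The 100 genes most in excess in replicate 2 had a median exon length of 1.85 kb, the 100 most in excess in replicate 1 had 6.85 kb, and all 4410 had 4.36 kb. The part of gene length in the difference between the libraries was not tested.

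The highest levels were those of mitochondrially encoded genes, followed by the cytoskeleton, chaperones and translation factors. MT-CO2, a subunit of cytochrome oxidase, stood at 5849 and 5540.3 RPKM, and MT-ATP6, a subunit of ATP synthase, at 6037 and 5286 RPKM. Their values crossed between the libraries, so these genes have no order. MT-ND4L followed at 3304 and 3050.1 RPKM. The nuclear genes began with ACTG1, cytoplasmic gamma-actin (ENSG00000184009.11, chromosome 17, 81509971 to 81523847; hg38, GENCODE release 29), at 1937 and 2007 RPKM, and TMSB10, a thymosin that binds actin monomers (ENSG00000034510.6, chromosome 2, 84905625 to 84906675), at 1909.9 and 2016 RPKM, whose values overlapped. Their means were 1972 ± 50.02 RPKM for ACTG1 and 1963 ± 75.2 RPKM for TMSB10 (SD, n = 2 each). The cytosolic chaperone HSP90AB1 stood at 1781 and 1815 RPKM and the elongation factor EEF1A1 at 1629.7 and 1675 RPKM, below both and apart from each other. GAPDH, a glycolytic enzyme, had 1243 and 1312 RPKM and FTL, the ferritin light chain that stores iron, 1227 and 1298 RPKM.

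HMGA1, an architectural chromatin protein abundant in embryonic and tumour cells (ENSG00000137309.19, chromosome 6, 34236873 to 34246231), stood among these housekeeping genes at 1186 and 1258 RPKM, which overlapped RPS12 (1152 and 1218) and lay above ACTB (1015 and 1066). EZR, which links actin to the plasma membrane of epithelial microvilli, had 901 and 922 RPKM, and the poly(A)-binding protein PABPC1 959 and 972 RPKM. SCD, which introduces the double bond of oleic acid, had 664 and 672 RPKM, within 1.5-fold of the elongation factor EEF2 (876 and 899). The other members of the 25 highest genes were MT-ATP8 (1093 and 954), RPS2 (1141 and 1199.9), RPL8 (967 and 1024), HSP90AA1 (763 and 793), RPL13A (695 and 718), PTMA (669.7 and 683), RPLP0 (594 and 620.5), PRDX1 (537 and 563) and RPS18 (542 and 558). PTMA encodes the acidic nuclear protein prothymosin, and PRDX1 a peroxide-reducing enzyme.

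**Figure D2:**
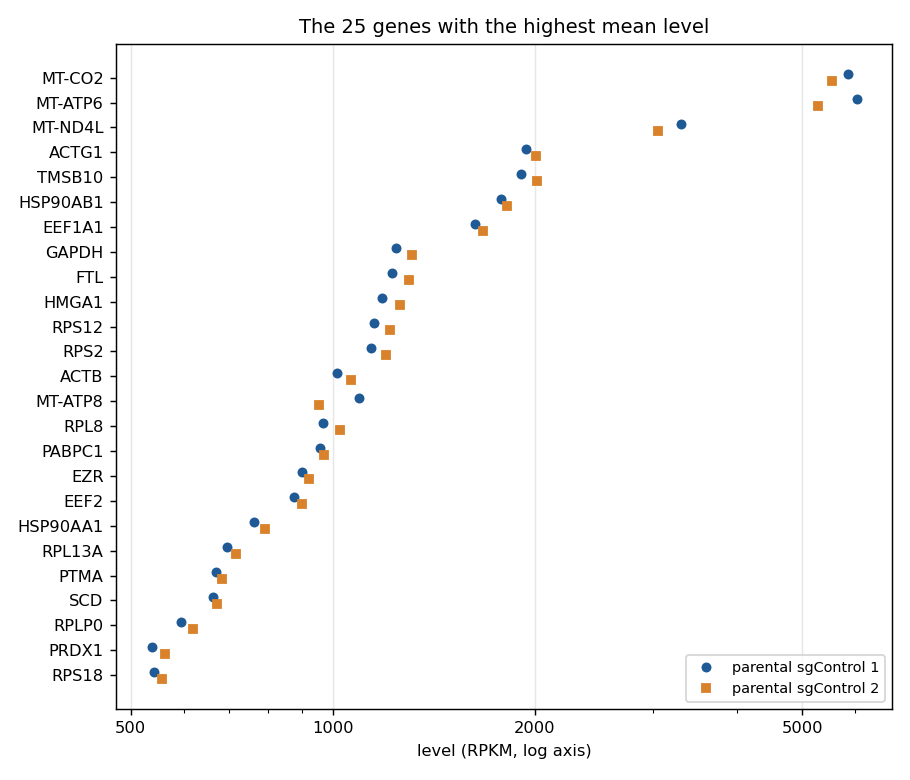
The 25 genes with the highest mean level, in RPKM on a log axis, with a circle for replicate 1 and a square for replicate 2 of control-guide cells. Mitochondrially encoded genes are lower in replicate 2 than in replicate 1, and the nuclear genes are slightly higher there.

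Outside the gene lists, families and paralog sets, the highest genes were FTL, HMGA1, PTMA and SCD, followed by the metal-binding metallothionein MT2A (497 and 561 RPKM). Next came ATP5F1B, the catalytic beta subunit of ATP synthase (479 and 496), the ferritin heavy chain FTH1 (375 and 418, with 60.6% of its coding bases overlapped) and the prolyl isomerase cyclophilin A, PPIA (329 and 342). PTMS, a relative of prothymosin, had 327 and 333 RPKM, and PHLDA2, an imprinted gene known for restraining placental growth, 293 and 315 RPKM.

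Ribosomal proteins made up the largest share of the pool that any list of nuclear genes held. The 76 measured of 79 genes summed to 8.18% and 8.46% of all RPKM, 75 of them reached 1 RPKM in both libraries and 56 had a mean of 100 RPKM or more. Proteins of the ribosome are needed in equal copies, yet the levels ran from about 1 RPKM to that of RPS12, with a median of 194 RPKM. At the low end were RPL17 (8.35 and 8.87 RPKM), RPL36A (1.59 and 1.21) and RPS10 (1.08 and 0.822). These 3 genes lie largely over another annotated gene: 98.2%, 67.3% and 56.9% of their coding bases lie in exons of another gene of GENCODE release 29. Their levels are uncertain to that extent, because reads in such bases may not have been assigned, and the part of this overlap in the levels was not tested.

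Among the translation factors, 10 of 12 elongation factors and 37 of 41 initiation factors reached 1 RPKM. EIF5A, the factor that carries hypusine, had 404 and 432 RPKM, and EIF4H, a helper of the initiation helicase, 172 and 181 RPKM. EIF4G2, which acts in cap-independent initiation, had 162 and 165 RPKM. EEF1A2, the form of EEF1A1 known from muscle and neurons, also reached 153 and 159 RPKM here. EEF1G was listed at 0, which allows up to 0.0259 and 0.0246 RPKM, but 100% of its coding bases lie in exons of another gene, so that its value does not show a silent gene. EIF4A1 (1.73 and 1.45) lay far below its paralog EIF4A2 (51.6 and 49.2), with 86.8% of its coding bases overlapped.

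The sequence around the start of transcription is shown for genes of this pool because ribosomal protein genes are known for a run of pyrimidines there, the terminal oligopyrimidine (TOP) tract, through which growth signals act on their translation. RefSeq promoters (GRCh38.p14, 250 bases before to 50 after the start) were found for 61 of 76 cytosolic ribosomal protein genes. Below are the 15 bases before and the 15 after the start of the highest of these and of other genes among the 25 highest, 5′ to 3′ on the gene's strand, with CTTT in capitals where it lies within 10 bases of the start.
RPS12 at chr6:132814554-132814583, plus strand: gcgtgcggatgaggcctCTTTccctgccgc
RPL13A at chr19:49487593-49487622, plus strand: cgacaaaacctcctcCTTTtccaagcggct
RPLP0 at chr12:120201097-120201126, minus strand: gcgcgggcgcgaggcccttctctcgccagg
RPS18 at chr6:33272060-33272089, plus strand: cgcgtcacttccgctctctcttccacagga
EEF1A1 at chr6:73521018-73521047, minus strand: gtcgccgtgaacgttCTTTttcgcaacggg
EEF2 at chr19:3985449-3985478, minus strand: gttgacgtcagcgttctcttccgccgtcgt
HMGA1 at chr6:34236858-34236887, plus strand: tgcccctgggtcgctCTTTttaagctcccc
TMSB10 at chr2:84905641-84905670, plus strand: gggcgccgctCTTTtgtttcttgctgcagc
ACTG1 at chr17:81512785-81512814, minus strand: gaggccgcggtcggtctcagtcgccgctgc
HSP90AB1 at chr6:44246179-44246208, plus strand: ccccgcaggtactccactctcagtctgcaa
GAPDH at chr12:6535249-6535278, plus strand: agcgggtgcatccctgtccggatgctgcgc
FTL at chr19:48965294-48965323, plus strand: tagccacgtcccctcgcagttcggcggtcc

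CTTT, a string chosen after these counts were seen, lay wholly within 10 bases of the start in 34 of 61 ribosomal protein genes (55.7%), against 8.83% of all 27305 promoters. Read on the other strand, as AAAG, it lay there in 3.28% of ribosomal protein genes and 6.49% of all promoters. RPS12, RPL13A and the elongation factor EEF1A1 held it, as did HMGA1 and TMSB10 outside the translation machinery. RPLP0, RPS18 and EEF2 did not hold these letters, although their windows show pyrimidine runs around the start. The ribosomal protein genes with the string had medians of 197.8 and 209 RPKM (n = 34 genes), and those without it 159 and 176 RPKM (n = 27 genes). Of the mitochondrial ribosomal protein genes, whose products work in another compartment, 7.46% held it, close to the share of all promoters. All promoters here include those of genes not measured, and a share over the measured genes is not given because 78.3% of them had a promoter, under the minimum of 80%. A match is a description of the letters and not evidence of a working site.

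TATAAA, the consensus of the TATA box that positions the polymerase, lay 40 to 20 bases before the start in 8.71% of the genes with a mean of 100 RPKM or more, in 1.29% of those at 10 to under 100 RPKM and in 0.952% of those at 1 to under 10 RPKM. On the other strand, TTTATA lay there in 2.49%, 0.351% and 0.269% of the same classes. Of all promoters, 2.50% held TATAAA and 0.652% TTTATA. The median ratio of observed to expected CpG over the 300 bases was 0.901, 0.877 and 0.842 in the 3 classes. The same check of genes at 0 is void, since a promoter was found for 72.9% of them.

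RNA of glycolysis genes and of mitochondrial respiration genes was present. Of 30 glycolysis genes, 19 (63.3%) reached 1 RPKM, against 53.4% of all genes, and 8 were under 0.1 RPKM. The list summed to 1.29% and 1.33% of all RPKM. Below GAPDH came ENO1, enolase (473 and 492 RPKM), PKM, pyruvate kinase (298 and 308), TPI1 (259 and 273) and the lactate dehydrogenase subunit LDHA (158 and 165). Tissue forms were among the low members: the testis form PGK2 was at 0 and the liver form PKLR (0.0297 and 0.00703) was under 0.1 RPKM. The muscle form PGAM2 was also listed at 0. Since 100% of its coding bases are overlapped, that value does not show a silent gene. ALDOA, the usual aldolase of proliferating cells, stood at 9.12 and 9.14 RPKM beside ALDOC at 9.48 and 9.37, but 93.8% of its coding bases are overlapped and its level is uncertain. The glucose transporter SLC2A1 had 52.1 and 54.9 RPKM, followed among 16 transporters by SLC2A6 (6.35 and 5.96) and SLC2A8 (4.84 and 5.23). Of 8 genes of gluconeogenesis and hepatic glucose output, 3 reached 1 RPKM and 4 were under 0.1 RPKM in both libraries. PCK1 and G6PC1 were at 0, while G6PC3, the ubiquitous glucose-6-phosphatase, had 10.9 and 11.3 RPKM.

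All 20 genes of the tricarboxylic acid cycle reached 1 RPKM, led by MDH2, mitochondrial malate dehydrogenase (85.2 and 87.6 RPKM), and CS, citrate synthase (42.7 and 43.8). SDHB, a subunit of succinate dehydrogenase, followed at 40.1 and 42.3 RPKM, overlapping IDH3B, of isocitrate dehydrogenase (41 and 40.6). The 4 mitochondrially encoded genes in the table held 7.18% and 6.45% of all RPKM, and the other 9 were not analysed here. Of the nuclear subunits of respiratory complex I, 34 of 39 reached 1 RPKM, with NDUFS5 (185 and 192), NDUFB10 (114 and 122) and NDUFB7 (99.7 and 100.7) highest. Mitochondrial ribosomal proteins followed the same pattern, with 73 of 76 genes at 1 RPKM or more and MRPS34 (114 and 125), MRPL41 (98.4 and 109) and MRPL18 (67.4 and 70.3) highest. Their median of 18.7 RPKM compares with 194 RPKM for the cytosolic set.

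Of 38 heat shock and chaperonin genes, 27 reached 1 RPKM. Behind the HSP90 genes stood the constitutive HSPA8 (499 and 518 RPKM), the small heat shock protein HSPB1 (433 and 468) and the mitochondrial chaperonin HSPD1 (385 and 395). The stress-inducible HSPA1B had 62.8 and 68.6 and HSPA1A 1.87 and 1.97, near-identical genes, so the split between them is uncertain. HSPA6, silent without stress in most cells, had 0.0299 and 0.00946 RPKM, and the lens crystallin CRYAA was at 0. Of 19 genes of the proteasome core, PSMA7 (139 and 144), PSMB3 (124 and 134) and PSMB4 (98.6 and 106) were highest. The immunoproteasome subunits, which replace some other core subunits after interferon, were low: PSMB9 1.29 and 1.6, PSMB10 0.824 and 0.987 (with 58.3% of its coding bases overlapped) and PSMB8 0.0335 and 0.0318 RPKM. PSMA2 (0.661 and 0.518) and PSMA6 (1.17 and 1.31) are required subunits listed at low values, and 97.1% and 70.3% of their coding bases are overlapped.

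Antioxidant genes were mostly active, while amino acid transporters reached 1 RPKM about as often as all genes (53.4%). Of 27 antioxidant genes, 21 reached 1 RPKM and 9 had a mean of 100 RPKM or more, with PRDX1, the glutathione peroxidase GPX1 (249 and 270.1) and thioredoxin, TXN (231 and 236), at the top. SOD3, the secreted superoxide dismutase, had 0.0233 and 0.0442 RPKM. Of 24 amino acid transporters, 13 (54.2%) reached 1 RPKM and 9 were under 0.1 RPKM, with a median of 2.46 RPKM. They were led by SLC7A5, which imports leucine (182 and 201), SLC38A2 (116 and 113) and the glutamine importer SLC1A5 (81.8 and 85.8). SLC3A2, the heavy chain that carries SLC7A5 to the membrane, had 57.5 and 62.1 RPKM, below its partner in both libraries.

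Cytoskeletal RNA was mostly of cytoplasmic actins, tubulins and the keratins of simple epithelia. ACTG1 exceeded ACTB in both libraries and the muscle actins lay under 1 RPKM, with ACTA2 at 0.710 and 0.794, ACTC1 at 0.669 and 0.518 and ACTA1 at 0.330 and 0.328. Of 22 tubulins, TUBB (444 and 459), TUBB4B (358 and 373) and TUBA1B (171 and 183, with 61.6% of its coding bases overlapped) led. Of 55 keratins, 7 reached 1 RPKM, and KRT19 (432 and 459.7), KRT8 (288 and 301) and KRT18 (178 and 189), the set of simple epithelia, held the family's level almost alone. KRT10, known from the upper epidermis, was next at 18.7 and 19 RPKM, and KRT20, the keratin of differentiated colon cells, had 0.242 and 0.278 RPKM. Among other intermediate filaments the lamins LMNB2 (138 and 144), LMNA (128 and 135) and LMNB1 (63.5 and 64.6) were highest. Vimentin, VIM, the filament of mesenchymal cells, had 0.781 and 0.736 RPKM, with 63% of its coding bases overlapped by another gene.

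A few calcium-, membrane- and sugar-binding proteins led families in which the share of active members varied: 10 of 19 S100 genes, 9 of 13 annexins and 3 of 13 galectins reached 1 RPKM. S100A6 had 502 and 539 RPKM, S100A4 215 and 219.6 and S100A10 202 and 216, whereas the myeloid S100A8 and S100A9 were at 0, which allows up to 0.0701 and 0.0665 RPKM for S100A8. ANXA2, the partner of S100A10, had 182 and 189 RPKM, ANXA1 125 and 129.9 and ANXA5 95.6 and 101.2. Of the galectins, LGALS1 had 396 and 423 RPKM and LGALS3 28 and 29.2, while LGALS4, the galectin of the gut lining, had 0.0528 and 0.0300. Among 27 integrins, ITGB1 (107 and 111) and ITGB4 (104 and 101.03) were highest, followed by ITGA3 (57.2 and 58.2) and ITGA6 (50.1 and 49.7), the alpha chains that bind laminin. The leukocyte integrin ITGB2 had 0.0205 and 0.0292 RPKM. Laminin genes themselves were present, with LAMA5 (31.7 and 26.1), LAMB3 (22.7 and 23.7) and LAMB2 (21.5 and 19.3) highest, and COL6A1 (33.8 and 34.5) led the collagens, of which 12 of 44 reached 1 RPKM.

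The labelled cell type was checked against marker genes of 12 kinds of cell. All 10 epithelial markers reached 1 RPKM, from 2.55 and 2.67 RPKM for the transcription factor ELF3 to KRT19 as the highest. EPCAM, the epithelial adhesion molecule, had 109.9 and 115 RPKM, the splicing regulator ESRP1 37.2 and 37.3 and E-cadherin, CDH1, 12 and 11.9. Of 10 colon and intestine markers, 2 reached 1 RPKM, among them CDX2, the homeobox factor that sets intestinal identity (4.05 and 4.28). The 10 markers summed to 6.73 and 6.74 RPKM, and 7 were under 0.1 RPKM in both libraries. CDX1 and CEACAM5 were at 0, and VIL1 (0.00679 and 0.00322), CDH17 (0.0606 and 0.0287) and GPA33 (0.0558 and 0.0681) were under 0.1 RPKM. The label thus fitted an epithelial line with CDX2 RNA that held little RNA of most of the listed colon and intestine markers.

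Most markers of other lineages were under 1 RPKM. No marker of endothelium, blood and immune cells, red cells or germ cells reached 1 RPKM, with summed levels of 0.172 and 0.210 RPKM for 7 endothelial genes and 0.725 and 0.738 for 10 blood genes, most of it CORO1A. The pan-leukocyte marker PTPRC had 0 and 0.00729 RPKM. Of 12 fibroblast markers, COL1A1 (2.58 and 2.51) and FN1 (1.64 and 1.6) reached 1 RPKM. Among neuronal markers SYT1, the calcium sensor of synaptic vesicles, had 14.2 and 13.7 RPKM and the microtubule protein MAP2 1.05 and 1.10, while SNAP25 (0.245 and 0.186) and RBFOX3 (0.0904 and 0.0993) were under 1 RPKM. Of the embryonic kidney line markers 2 of 6 reached 1 RPKM, the developmental factors PAX2 (1.57 and 1.56) and PAX8 (1.59 and 1.31). So did 1 hepatocyte marker of 7, the protease inhibitor SERPINA1 (1.14 and 1.15), and 1 muscle marker of 8, the filament protein DES (1.48 and 1.59). Among keratinocyte markers KRT10 was above 1 RPKM, while KRT5 (0.0171 and 0.0162) and TP63 (0.00628 and 0.00298) were under 0.1 RPKM. In a culture, fewer cells of a type and less RNA per cell cannot be told apart.

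**Figure D3:**
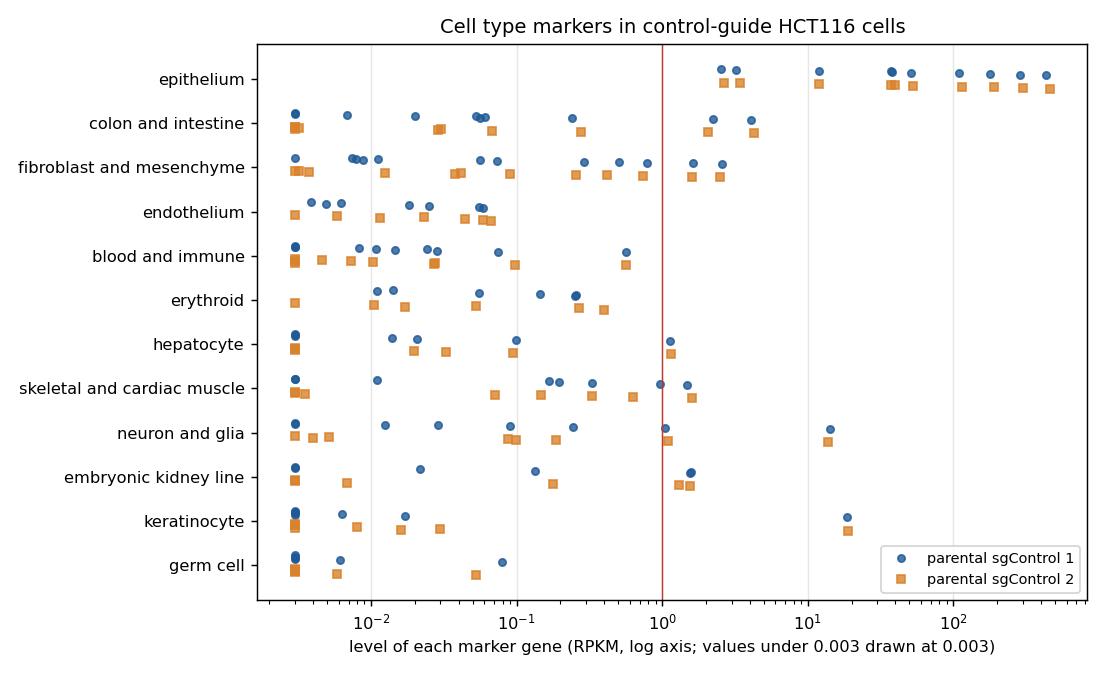
Level of every marker gene of 12 cell types in control-guide HCT116 cells, in RPKM on a log axis, with a circle for replicate 1 and a square for replicate 2 and the red line at 1 RPKM. The 10 epithelial markers lie above 1 RPKM in both libraries, and most markers of the other cell types lie below it.

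Most of the measured products of mature gut cells were close to absent. Of 24 absorptive cell genes, 1 reached 1 RPKM, the carbonic anhydrase CA2 (25.8 and 27.4 RPKM), and 10 were at 0, among them FABP1, CA4 and GUCA2A. The sodium-proton exchanger SLC9A3 had 0.655 and 0.558 RPKM and the chloride exchanger SLC26A3 0.0486 and 0.0395. None of the 20 secretory cell genes measured, out of 22 listed, reached 1 RPKM. MUC2 and FCGBP, of goblet cells, were not found among the measured genes. TFF3, the goblet cell trefoil peptide, AGR2 and the Paneth cell defensin DEFA5 were at 0, and chromogranin A, CHGA, had 0.0155 and 0.00737. The highest secretory cell gene was DCLK1, known as a tuft cell marker in mouse, at 0.726 and 0.823 RPKM. Of 14 measured mucins, which leave out MUC2 and MUC19, MUC3A reached 1.47 and 1.55 RPKM, and the membrane mucin MUC1 had 0.413 and 0.411.

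The transcription factors and stem cell markers of the crypt were divided. SOX9, a factor of crypt progenitors, had 66.1 and 67.3 RPKM, the Wnt effector TCF7L2 29.7 and 28.6, the ETS factor EHF 20.6 and 21 and KLF5, of proliferating crypt cells, 19 and 18.9. ATOH1, which commits cells to the secretory lineage, was at 0.0319 and 0.0504 RPKM and NEUROG3, the endocrine switch, at 0. Of 20 stem cell markers, 11 (55%) reached 1 RPKM, near the 53.4% of all genes. They were led by CD44 (49.5 and 48), ALCAM (27.5 and 26.7) and BMI1 (14.4 and 14.5, with 100% of its coding bases overlapped). The markers most specific to crypt base stem cells were not among them: LGR5 had 0.00450 and 0 RPKM, ASCL2 0 and 0.0120, SMOC2 0.0175 and 0.0111, and OLFM4 was at 0, which allows up to 0.0243 and 0.0231 RPKM.

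Cell junction genes were present in part. Of 24 claudins, which seal tight junctions, CLDN7 (51 and 53.1 RPKM), CLDN4 (37.8 and 39.6) and CLDN12 (6.29 and 6.34) led, and CLDN1 had 0.0324 and 0.0184. Of 22 cadherins, the placental cadherin CDH3 (31.2 and 32.7) exceeded CDH1 in both libraries, CDH24 had 10.1 and 9.04, and N-cadherin, CDH2, of mesenchymal and neural cells, had 0.0659 and 0.0577. The tight junction scaffold TJP1 had 19.5 and 18.8 RPKM, F11R 13.6 and 13 (with 100% of its coding bases overlapped) and TJP3 10.7 and 11.

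HOX genes carry a record of position along the body axis, and the 4 clusters differed in these cells. HOXB (chromosome 17) had 8 of 10 genes at 1 RPKM or more, HOXA (chromosome 7) 8 of 11, HOXC (chromosome 12) 3 of 9 and HOXD (chromosome 2) 1 of 9. The summed levels were 119 and 119 RPKM for HOXB, 43.6 and 43.8 for HOXA, 10.1 and 9.93 for HOXC, and 1.38 and 1.29 for HOXD. The highest genes were HOXB7 (33.3 and 36.1), HOXB8 (26.7 and 26.6) and HOXA9 (22.2 and 22.2), which did not overlap, followed by HOXB4 (15.8 and 16.5) and HOXB9 (15.4 and 14.8). In HOXB the level was near or above 7 RPKM from HOXB4 to HOXB9, with HOXB5 at 8.89 and 7.17 and HOXB6 at 12.7 and 11.1, and lower on both sides: HOXB3 had 2.97 and 2.75, HOXB13 2.88 and 2.98, and HOXB1 was at 0. HOXA9 stood apart in its cluster from HOXA10 (5.39 and 5.2) and HOXA7 (2.78 and 3.05). In HOXD, HOXD8 had 1.27 and 1.20 RPKM and the other 8 genes were under 0.1 RPKM in both libraries.

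**Figure D4:**
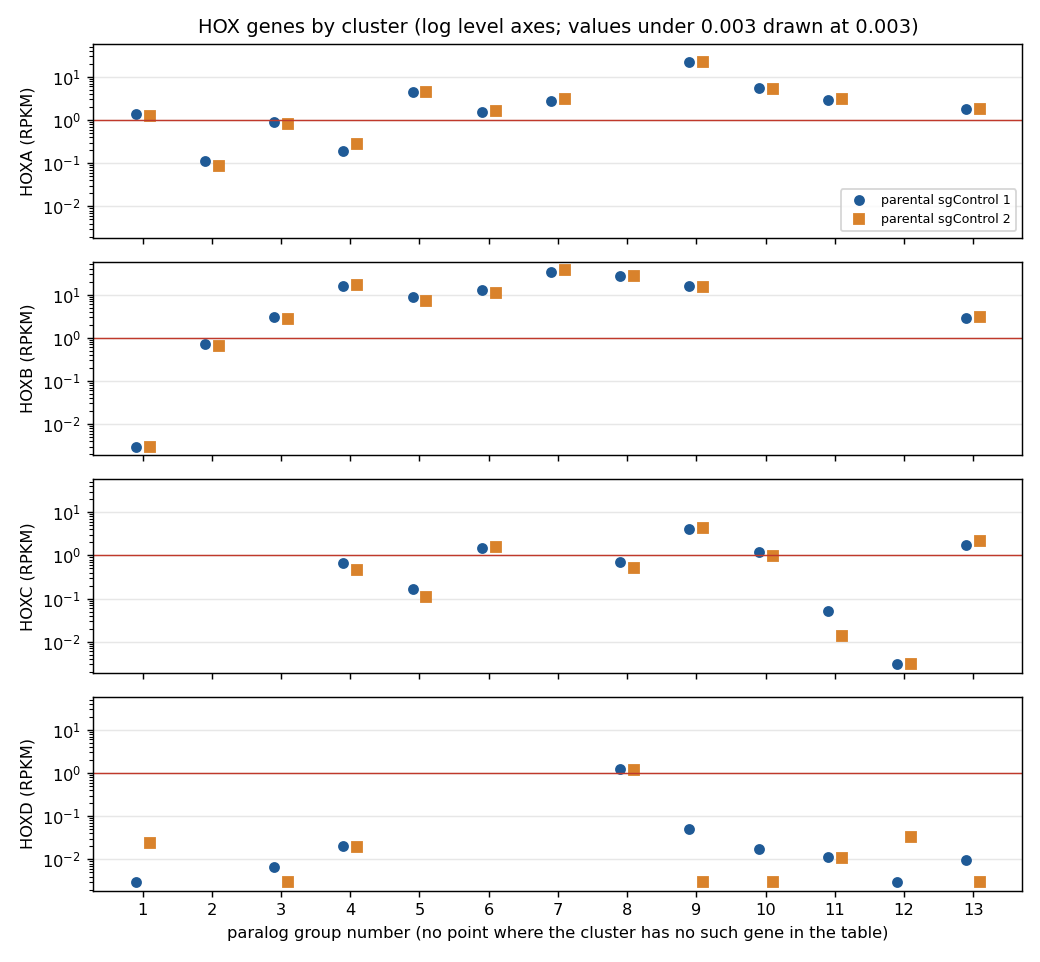
Level of each HOX gene by cluster and paralog group, in RPKM on log axes, with a circle for replicate 1, a square for replicate 2 and the red line at 1 RPKM. The middle of HOXB lies highest, and the HOXD genes other than HOXD8 lie below 0.1 RPKM.

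Other developmental factor families were each led by few members. Behind SOX9, SOX12 had 17.6 and 19.3 RPKM and SOX4 13.8 and 13.7, while the pluripotency factor SOX2 (0 and 0.0532) and the neural crest factor SOX10 (0.0287 and 0.0871) were low and SOX17, of endoderm, was at 0. Of the GATA factors, GATA2 (3.38 and 3.16) and GATA6 (2.29 and 2.39) reached 1 RPKM and GATA4 had 0.0106 and 0.0150. KLF2 (50.4 and 49.6), KLF10 (37.3 and 37.2) and KLF6 (22 and 21.5) led the Krüppel-like factors, and KLF1, of red cells, was at 0. Of 50 forkhead factors, FOXM1, which drives mitotic genes, was highest (27.6 and 27.8), followed by FOXK2 (18.6 and 18.9) and FOXC1 (17.2 and 17.1), and the gut factor FOXA2 had 0.0541 and 0.

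Some ligands of the epidermal growth factor (EGF) receptor family had high RNA levels. Of 11 ligands, 5 (45.5%) reached 1 RPKM, against 53.4% of all genes, and the median was 0.291 RPKM. EREG had 162 and 161 RPKM (162 ± 0.938; SD, n = 2), AREG 91.1 and 97.2 and TGFA 21.7 and 22.1, all ligands of EGFR, while EGF itself had 0.157 and 0.140. Of the receptors, EGFR (12.5 and 11.9) and ERBB2 (10.6 and 10.7) stood close together, ERBB3 had 5.69 and 5.32 and ERBB4 0 and 0.00171. Among the other receptor tyrosine kinases, 20 of 40 (50%) reached 1 RPKM, near the 53.4% of all genes. MET, the receptor of hepatocyte growth factor (54 and 53.7), the collagen receptor DDR1 (35.8 and 36.8) and AXL (31 and 32.5) were highest. KIT, of mast cells and melanocytes, was at 0, and PDGFRA had 0.00738 and 0.00233. EPHA2 (89 and 92.2) exceeded EPHB4 (19.1 and 19.5), the next ephrin receptor, and EFNB1 (11 and 11.7) was the highest ephrin.

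All 20 genes of the RAS-MAPK cascade reached 1 RPKM, led by the adaptor GRB2 (59 and 59.7 RPKM) and the RAS relative RRAS (40.6 and 40.6). HRAS (33.6 and 34.8 RPKM) and NRAS (33.3 and 34.2) did not differ beyond the spread between libraries. Of the kinases they activate, ARAF (14.5 and 14.3) exceeded BRAF (1.95 and 1.93). Of 16 genes that the pathway induces, 13 reached 1 RPKM: the survival gene IER3 had 306 and 312, the AP-1 subunit FOSL1 85.5 and 90.1, and the phosphatases followed with DUSP5 (67.7 and 69.3), DUSP6 (50.1 and 49.2) and DUSP4 (44 and 46.2). Of the PI3K-AKT-mTOR genes, RHEB (31.1 and 31.3), AKT1 (17.5 and 17.4) and MTOR (11.7 and 11.5) were highest, while PIK3R2 was listed at 0.0210 and 0.0249 with 98.8% of its coding bases overlapped.

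In the Wnt pathway, in which ligands stabilise beta-catenin so that it acts with TCF factors, RNA of 1 ligand stood out. WNT16 (ENSG00000002745.13, chromosome 7, 121325367 to 121341104) had 53.7 and 55.5 RPKM (54.6 ± 1.23; SD, n = 2), from 7464 and 8123 recovered reads. The next ligands were WNT9A (5.51 and 6.12) and WNT10B (4.71 and 5.27). The next annotated gene, on the opposite strand, is FAM3C, a secreted protein gene at 241 and 246 RPKM, and the part of this neighbour in the level of WNT16 was not tested. Of the receptors, LRP5 (23.9 and 24.7), FZD6 (21.7 and 21.3) and FZD2 (11.1 and 10.1) were highest. DVL1 (55.7 and 56.9), CTNNB1, beta-catenin (39.9 and 40.2), and TCF7L2 led the intracellular factors, and LEF1 was at 0. The secreted antagonist DKK1 reached 79.9 and 79.5 RPKM, whereas the feedback genes NOTUM (6.70 and 6.71), RNF43 (5.92 and 5.95, with 87.2% of its coding bases overlapped) and AXIN2 (2.67 and 2.70) were under 10 RPKM and SFRP2 and WIF1 were at 0.

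Ligands of the TGF-beta family were led by the stress cytokine GDF15 (86.3 and 92.7 RPKM), BMP4 (68.7 and 69.5) and TGFB1 (30.4 and 32.5), and 17 of 33 ligands were under 0.1 RPKM in both libraries, BMP2 among them (0.00663 and 0). TGFBR2, often mutated in mismatch repair deficient tumours, had 13 and 13 RPKM, close to TGFBR1 (11 and 11). Of the SMAD proteins, SMAD3 (13.4 and 12.8) and SMAD5 (13 and 12.4) overlapped, SMAD4 had 5.62 and 5.35, and the inhibitory SMAD7 0.537 and 0.616. In the Notch pathway HES4 had 61.8 and 59.7 RPKM, the ligand JAG2 27.4 and 26.6 and MAML1 11.4 and 12.2, while DLL3 was low (0.0179 and 0) and HES5 was at 0. The Hedgehog ligand SHH had 0.0494 and 0.0596 RPKM, with SUFU (7.08 and 7.15) and SMO (5.78 and 6.02) the highest of 11 genes and GLI1, the pathway's target, at 1.03 and 0.831.

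Of the cyclins 15 of 18 and of the BCL2 family 12 of 17 genes reached 1 RPKM. CDKN1A, the p21 inhibitor of cyclin-dependent kinases, had 84.4 and 91.8 RPKM, overlapping GDF15, and the death gene PMAIP1 had 48.1 and 48.8. The ubiquitin ligase MDM2 had 12 and 11.8 RPKM. Of the BCL2 family, the survival genes BCL2L1 (66.5 and 69.8, with 80.7% of its coding bases overlapped) and MCL1 (50.4 and 50.2) were highest and BCL2 had 0.210 and 0.216. Cyclins were led by CCND1 (263 and 269), CCNB1 (109 and 111) and CCNA2 (57.1 and 58.8), while the meiotic CCNA1 was at 0. CDK1, of mitosis, had 40.8 and 40.3 RPKM and CDK4, the partner of cyclin D, 36.4 and 40.2. CDKN2A, the INK4A and ARF gene, had 10.02 and 10.4.

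Of 10 mismatch repair genes, 8 reached 1 RPKM. The exonuclease EXO1 had 12.3 and 12.5 RPKM and MSH6, which recognises single mismatches, 9.88 and 10.04. MSH3, which recognises larger loops, was below both in both libraries at 0.901 and 0.736 RPKM. Telomerase reverse transcriptase, TERT, had 1.31 and 1.10 RPKM, and its accessory proteins NOP10 (89.6 and 88.3), NHP2 (54.6 and 60.4) and DKC1 (44 and 45.2) were the highest of 11 telomere genes. Among Polycomb and DNA methylation genes, UHRF1 (42.8 and 43.7), DNMT1 (36.7 and 35.7) and CBX6 (33.9 and 35.1) led, EZH2 had 23.4 and 23.7, and DNMT3L, of germ cells, was at 0. MYC had 58.2 and 59.5 RPKM, above MLX (16 and 16.3) and MLXIPL (14.7 and 12.5) in its network, and MYCN was at 0, which allows up to 0.0271 and 0.0257 RPKM.

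The PUMILIO proteins, which the series links to NORAD, repress messenger RNAs that carry their binding motif through the CCR4-NOT deadenylase. PUM2 had 28.8 and 27.6 RPKM. Of 29 genes in this group 24 reached 1 RPKM, the highest being the RNA-binding KHDRBS1 (93.1 and 93.4), also known as SAM68, RBMX (47.8 and 48.8) and the antiproliferative adaptor TOB1 (44.2 and 45.2). The scaffold CNOT1 had 34.1 and 32.6 RPKM. NANOS2 and BTG4, germ cell partners, were at 0 and NANOS3 had 0.0951 and 0.0902. NORAD itself was not analysed here.

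Toll-like receptors and interferons were low, while other innate immune genes were mixed. None of 10 Toll-like receptors reached 1 RPKM, the highest being TLR6 (0.833 and 0.716), TLR3 (0.489 and 0.507) and TLR1 (0.326 and 0.285), and TLR2 and TLR4 were at 0. Of the cytosolic sensors, CGAS (0.0169 and 0) was under 0.1 RPKM and AIM2, IFI16 and ZBP1 were at 0, whereas the RNA sensors RIGI (3.20 and 3.08) and IFIH1 (2.12 and 2.23) and the adaptor STING1 (3.57 and 3.40) were detected. ADAR, which edits double-stranded RNA, had 40.4 and 41.2 RPKM and MAVS 26.2 and 24.8, the highest of 23 genes, followed by OAS3 (11.2 and 11.9). In all, 10 of these genes reached 1 RPKM, as did 8 of 11 genes in the list of interferon regulatory factors. IRF3 had 14.5 and 13 RPKM, while IRF9 was listed at 0.279 and 0.147 with 88.9% of its coding bases overlapped. None of 21 interferon genes reached 1 RPKM and 15 were at 0. Antigen presentation genes of class I exceeded those of class II. CALR (356 and 369), HLA-C (139 and 144) and PDIA3 (119 and 123) led the class I list, B2M had 49 and 50.7, and of 15 class II genes HLA-DMA (1.53 and 1.46) alone reached 1 RPKM. Reads of HLA genes may be split between related copies and alleles, so those values are uncertain.

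Secreted immune ligands were few. Of 42 chemokines, CXCL16 (15 and 15.4 RPKM) and CXCL8 (1.04 and 1.03) reached 1 RPKM in both libraries, and of 41 interleukins IL18 (18.8 and 19.2) and IL12A (1.23 and 1.24) did. IL6 (0 and 0.0323) and IL1B (0.0152 and 0) were under 0.1 RPKM. Among 48 nuclear receptors, NR2F6 (33.3 and 37.4) and the clock repressors NR1D1 (32.4 and 32.9) and NR1D2 (26.2 and 26.6) were highest, and the steroid receptors ESR1 (0.0102 and 0.00161) and PGR (0.00153 and 0) were under 0.1 RPKM. Of the gut and epithelial G protein-coupled receptors, the protease receptor F2RL1 (55.8 and 55.6), GPRC5A (43.4 and 43.5) and the adenosine receptor ADORA2B (23.2 and 23.6) led. In the insulin-like growth factor system the binding proteins IGFBP6 (48.1 and 51.5) and IGFBP2 (25.3 and 26.3) and the RNA-binding IGF2BP2 (45.5 and 46.4) were highest, IGF1R had 1.63 and 1.54, and IGF1 was at 0.

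Large families of specialised tissues were silent with few exceptions. Of 388 olfactory receptors, 348 were at 0 in both libraries and 3 reached 1 RPKM. Of 94 hair keratin-associated proteins 75 were at 0, of 45 defensins 41, and of 30 late cornified envelope and SPRR genes, of the skin barrier, 29. None of 53 clustered protocadherins, of neurons, reached 1 RPKM in both, although PCDHGA10 (1.0 and 0.832) and PCDHAC2 (0.980 and 0.923) came close. At shares slightly under that of all genes (53.4%), 255 of 514 ZNF zinc finger genes (49.6%) and 168 of 337 solute carriers (49.9%) reached 1 RPKM, led by ZNF664 (37.6 and 37.3) and by the adenine nucleotide carrier SLC25A5 (246 and 254). Replication histones, whose RNA lacks a poly(A) tail, had 12 of 71 genes at 1 RPKM or more after poly(A) selection, with H2BC12 at 22.9 and 25.7, against all 10 measured polyadenylated histone genes, such as H2AX (206 and 214) and H2AZ1 (198 and 202).

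**Figure D5:**
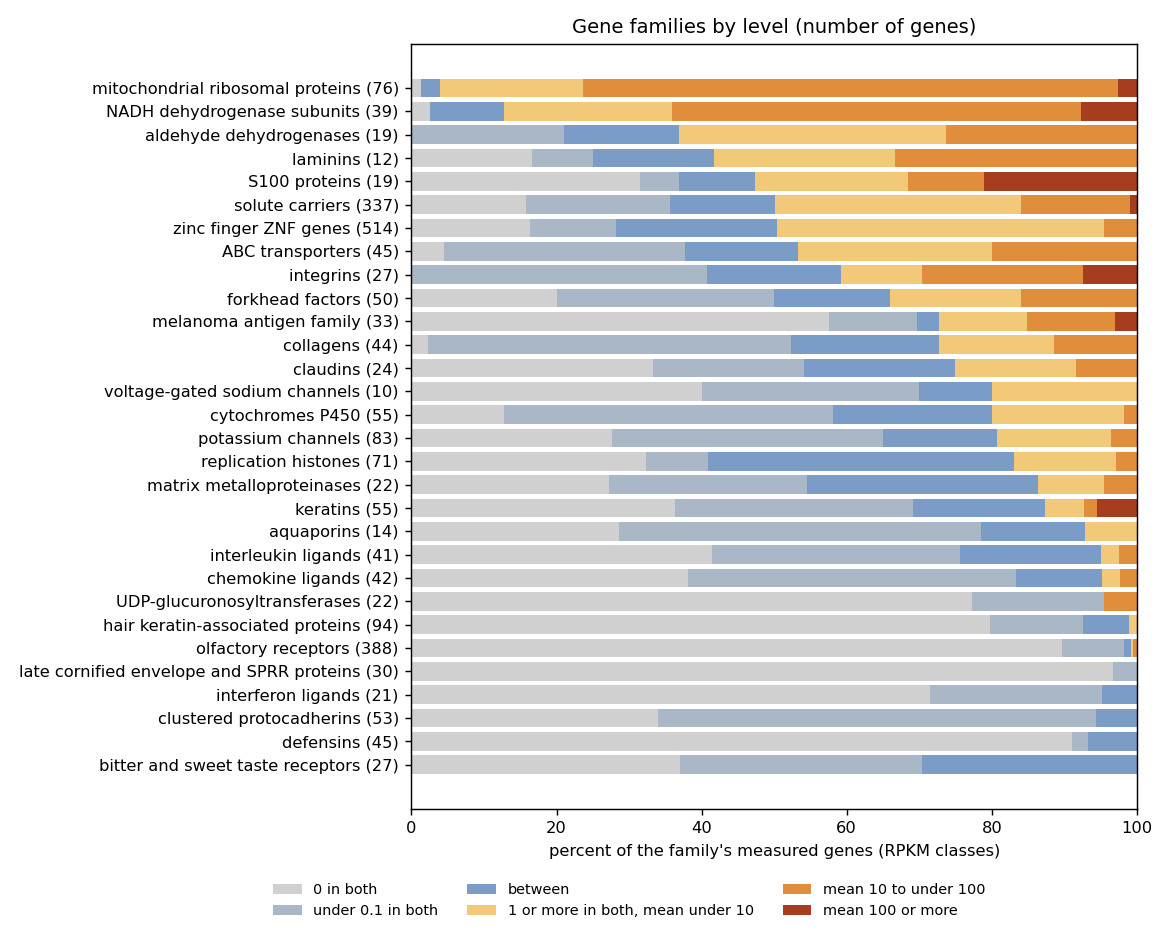
Share of each family's measured genes in 6 classes of level, in percent, with the number of genes in brackets and the classes in RPKM over both control-guide libraries. Mitochondrial ribosomal proteins and complex I subunits lie at the high end, and taste receptors, defensins and protocadherins have no gene at 1 RPKM or more in both.

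The olfactory receptors above 1 RPKM were neighbours. OR51B4 (ENSG00000183251.4, chromosome 11, 5301014 to 5301946) had 21.1 and 22 RPKM from 839 and 922 reads, OR51B5 11 and 10.9 and OR51B2 6.30 and 6.62. All 3 are on the minus strand, and the annotation of OR51B5 (5303444 to 5505652) spans OR51B2 (5323359 to 5324297). They lie at the beta-globin genes, where the fetal globin HBG2 had 3.41 and 3.82 RPKM and the embryonic HBE1 1.44 and 1.35, against 0.144 and 0.0171 for the adult HBB. The annotations of HBG2 (5253190 to 5505605) and HBE1 (5268345 to 5505652), on the same strand, span OR51B4 and OR51B2 and overlap OR51B5. Of the coding bases of HBG2 and HBE1, 85.7% and 93.7% lie in exons of another gene. Farther along, OR51B6 had 0.0751 and 0 RPKM, OR51Q1 was at 0, and OR52D1 had 1.19 and 0.837. HBG1 (0.0142 and 0) shares much of its sequence with HBG2, so the split between them is uncertain. Whether the 3 receptor genes have transcripts of their own or share one was not tested.

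Cancer-testis genes, normally confined to germ cells and often active in tumours, showed the same contrast. Of 40 genes, 5 reached 1 RPKM and 27 were at 0. MAGEB2 (ENSG00000099399.6, chromosome X, 30215560 to 30220089) had 118 and 124 RPKM (121 ± 4.27; SD, n = 2) from 8043 and 8913 reads, while MAGEB3, whose start lies 14.9 kb from its own, had 0.0917 and 0.0193 and MAGEB4 and MAGEB1 were at 0. MAGEA3 had 58.8 and 61.2 RPKM and its near copies MAGEA6 1.34 and 1.44 and MAGEA2 1.23 and 1.03, among which the split of reads is uncertain, and MAGEA4 and MAGEA10 were at 0. CSAG3, another cancer-testis gene, had 8.0 and 7.12 RPKM. PRAME had 13.3 and 14.3 RPKM, and MAGEF1 (25.6 and 27.1) and MAGED1 (18.2 and 18), members of the family that many tissues express, were next in the melanoma antigen family.

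Further single genes stood out in otherwise low families. CYP24A1, which inactivates vitamin D (ENSG00000019186.10, chromosome 20, 54153449 to 54173973), had 87.4 and 83.5 RPKM (85.4 ± 2.82; SD, n = 2), against 9.62 and 9.96 for CYP2S1, the next of 55 cytochrome P450 genes, and 3.27 and 3.07 for CYP27B1, which activates vitamin D. Of 22 genes grouped with the UDP-glucuronosyltransferases by symbol alone, UGT8, which makes galactosylceramide, had 12.9 and 12.6 RPKM. The other 21 were under 0.1 RPKM in both libraries. KCNN4, the calcium-activated potassium channel of secretory epithelia, had 29.7 and 28.6 RPKM and KCNH3 11.1 and 11, with 16 of 83 potassium channels at 1 RPKM or more. MMP15 had 27.7 and 29.98 RPKM, and MMP3, MMP8 and MMP10 were at 0 among 22 matrix metalloproteinases. AQP3 (1.90 and 2.05) was the aquaporin above 1 RPKM, and ALDH18A1 (38.4 and 38.5), ALDH1A3 (33.3 and 34.7) and ALDH1B1 (26.9 and 28.8) led the aldehyde dehydrogenases, where ALDH1A1 had 0 and 0.0157. KRTAP2-3, a hair protein gene, had 4.0 and 3.54 RPKM, and its neighbours in the cluster were under 1 RPKM.

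Paralog sets, in which several genes can do a job, differed in how far 1 gene carried the level. In 59 sets with every member measured, the top member held 90% or more of the summed RPKM in both libraries in 30 sets and under 50% in 5. PKM held 99.99% over the liver form PKLR, GAPDH 99.995% over the sperm form, COX4I1 99.96%, CKB 99.95% over muscle creatine kinase, and PGK1 100% over the testis form. RPL3 held 99.99%, RPL10 100%, PDHA1 100%, PGAM1 100%, HMGCS1 100%, COX6A1 100%, COX7A2 99.2% and COX8A 99.96% over forms of testis, muscle or liver. Among growth genes, CCND1 held 96.8% of the D-type cyclins, MYC 96.7% of its family and TFRC 97% of the transferrin receptors, and EZR held 91.9% over radixin and moesin. ENO1 (96.5%), LDHA (93.8%), ACACA (94.5%), CPT1A (95.6%), EIF5A (98.8%), EEF1A1 (91.4%), SLC25A5 (96.8%), TMSB10 (94.2%) and PFN1 (90.2%) also held 90% or more. EIF4A2 held 96.9%, beside the overlapped EIF4A1. The shares of LDHA, CPT1A, CCND1 and GAPDH are uncertain in the same way, since LDHB (93.5%), CPT1B (97.8%), CCND2 (68%) and GAPDHS (63.3%) have most of their coding bases overlapped. So is the share of PGAM1, since PGAM2 has 50% or more of its coding bases overlapped. COX6A1 and COX8A are themselves overlapped to that extent, so their shares are uncertain too. The even sets included the signalling adaptors of the 14-3-3 family, where YWHAE led with 21.7%, tropomyosin with TPM2 at 45.6% and the channel VDAC with VDAC1 at 46.6%. In 13 of the 59 sets a member had 50% or more of its coding bases overlapped. In the other 46 sets, chosen after the overlap was seen, 20 had a top member at 90% or more, the set of SLC25A5 among them.

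An RPKM of 0 in this table does not always mean a silent gene. The 605 genes with 90% or more of their coding bases in exons of another gene reached 1 RPKM in 13.9% of cases and were at 0 in 35%, against 53.9% and 18.3% of the 14523 genes with under 1% overlap. The 572 genes with 50% to under 90% overlap reached 1 RPKM in 45.5% of cases. SLC25A6, an adenine nucleotide carrier that counts as a paralog of SLC25A5 above, was at 0 without such overlap and stands in 2 rows of the table, since it lies in a region shared by X and Y. How the reads of overlapping genes were assigned is not given in the sources used here, and the part of overlap in these levels was not tested.

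Chromosomes 1 to 22 and X held unequal shares of active genes. The share of genes at 1 RPKM or more was 62.1% of 815 genes on chromosome 16 and 61% of 428 on chromosome 22, against 41.9% of 222 on chromosome 21 and 38.1% of 852 on X. Chromosome 21 holds 49 olfactory receptor and hair keratin-associated protein genes. Without these 2 families its share was 53.8%. X holds 1 gene of these families, so leaving it out could hardly change the share of X, which was 38.2%.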

How the data were processed

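Poly(A) RNA of 2 control-guide libraries of HCT116 CRISPRi cells was used out of 8 in the series. The authors deposited 1 table of RPKM values for 19411 genes. Per the submitters' processing notes the tools were STAR (no version), featureCounts 1.6.0 and edgeR 3.24.0, with the build hg38. Annotation release, strand use and filters were not given in the sources used here. The series' design text, on triplicates and a small RNA kit, did not match these libraries and was set aside.

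Identifiers were matched to GENCODE release 29 (19379 of 19411), and 27 symbols turned into dates were restored. Whole reads, within 0.1 read, were recovered from the RPKM steps with the annotated exon length for 10582 genes and with a fitted length for 6768. Recovery with annotated lengths was tested on simulated data, and the fitting of lengths was not. Totals and shares of recovered reads use both kinds of length. Reads over genes came to 39.75 and 42.15 M (megareads). Python 3.11.15 with pandas 2.3.3, numpy 2.4.6 and scipy 1.17.1 was used. No test between groups was made, and the spread between the libraries may be technical.

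The members, gene lists and families were chosen with earlier results of these data known. Genes were named as the 25 highest, the 3 highest of each list, family or set, members at 0 or under 0.1 RPKM for which a list is known, members of sets with a top share of at least 90% or under 50%, the 5 largest differences between the libraries in each direction, and the 10 highest outside all lists. Some genes that this rule names are not reported here. Further members named were chosen after their values were seen. Thresholds, pseudocounts, left-out libraries and, after the data were seen, overlap of coding bases were varied.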

Additional observations from a re-analysis of the deposited data

How the results depend on the processing

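The number of genes at 1 RPKM or more in both libraries (10372) stayed within 1.5 times under the other thresholds and rules tried, and so did the number of paralog sets with a top member at 90% or more (30). The number of genes at 0 in both libraries, 3292, was 6378 when it counted genes under 0.1 RPKM in both. Without the mitochondrially encoded genes, the 100 highest genes held 22.8% of the summed RPKM in place of 27.6%, the ribosomal proteins 8.93% in place of 8.32% and the glycolysis enzymes 1.41% in place of 1.31%. With recovered reads in place of RPKM, which weights long genes more, the 100 highest genes held 17.7%, the ribosomal proteins 5.69% and the mitochondrially encoded genes 0.951% in place of 6.82%. The root mean square log2 difference between the libraries was 0.0965, and 0.188 over all genes above 0 in at least 1 library. The median promoter CpG ratio of genes at 1 RPKM or more was 0.857, against 0.839 for the 250 bases before the start alone and 0.879 for genes with a mean of 10 RPKM or more.

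Among genes with under 50% coding overlap, a restriction chosen after the data were seen, 10028 reached 1 RPKM and 3021 were at 0. From 1 library at a time, the genes at 1 RPKM or more numbered 10417 to 10480, the genes at 0 3846 to 3867, the paralog sets 30 to 30, and the CpG ratio was 0.856 to 0.856. The shares were 27.6% to 27.7% for the 100 highest genes, 8.18% to 8.46% for ribosomal proteins, 6.45% to 7.18% for mitochondrially encoded genes and 1.29% to 1.33% for glycolysis enzymes. Of 94 lists and families, 82 kept their number of members at 1 RPKM or more within 1.5 times at a threshold of 0.5 RPKM and 94 did with the mean of both libraries. Replicate 1 alone gave 5 olfactory receptors at 1 RPKM or more in place of 3, adding OR52D1 and OR2A7, and 1 clustered protocadherin in place of 0. No paired analysis was possible because there is 1 group and no test. Levels under about 0.1 RPKM rest on few reads and are limited by depth, and a gene at 0 may have reads that were not assigned to it. A fit of promoter features for genes at 0 was not run, since under 80% of them had a promoter sequence.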
